A study of Rattus norvegicus with 30 samples.

Results

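Injured rats were compared with sham-operated rats 12 weeks after surgery, in a region of spinal cord that lay above the injury. Members were taken by sample title: 10 of the 30 libraries of the series, of which 5 came from rats with a spinal cord injury (SCI) and 5 from rats with sham surgery. All were adult female Long Evans rats (Crl:LE), and both groups were taken at 12 weeks. The injury was at thoracic level. The tissue was the gray matter of laminae IV to VII from both sides of the cord at vertebral level C3, so no tissue from the lesion was sequenced. Rats for sequencing had been selected by how much RNA they gave and how intact it was, and animals with an inadequate lesion had been left out.

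A thoracic injury cuts corticospinal axons on their way from motor cortex to the hindlimb segments, while the stretch of these axons in the cervical cord is spared. Corticospinal axons are known to grow new branches into cervical gray matter in the weeks after such an injury, and the intermediate laminae are where such branches meet spinal interneurons. The series title names this region as the target of sprouting hindlimb fibres. The comparison asks what differs there between injured and sham rats at the latest time sampled.

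The files list genes by Ensembl identifier. No identifier matched the reference table used here, so genes are given by identifier or by rank of abundance, what they encode is not stated, and neither the labelled tissue nor the share of any cell type was checked against marker genes. For the same reason no sequences are shown. Abundance means the share of a library's counts, which depends on transcript length, so ranks order genes by counts and not by molecules.

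Library totals of 12 weeks ran from 8.13 M to 33.5 M counts in injured rats, with a mean of 18.1 M ± 10.1 (SD, n = 5), and from 11.7 M to 18.8 M in sham rats, with a mean of 14.5 M ± 2.64. The difference of 3.60 M was within the spread between rats (exact two-sided permutation test, p = 0.508). Injured rat 2 was the shallowest and injured rat 3 the deepest of the 10.

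The 10 most abundant genes together took a smaller part of the RNA counts in injured rats. They held 11.4%, 10.4%, 8.54%, 9.64% and 11.2% of all counts in injured rats 1 to 5, and 11.4%, 11.9%, 11.7%, 12.0% and 12.1% in sham rats 1 to 5. Every injured rat lay below every sham rat, but the highest injured rat and the lowest sham rat were only 0.0355 percentage points apart. The means were 10.2% ± 1.16 (SD, n = 5) and 11.8% ± 0.278, a difference of -1.62 percentage points (exact two-sided permutation test over 252 splits, p = 0.00794, the smallest that 5 against 5 can give). Benjamini-Hochberg adjustment over the 6 list sizes tried, from the single most abundant gene to the 500 most abundant, gave an adjusted p of 0.0159. A lower share of these genes at 12 weeks was already known from earlier work on these files, so the p is a description rather than a fresh test.

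**Figure D1:**
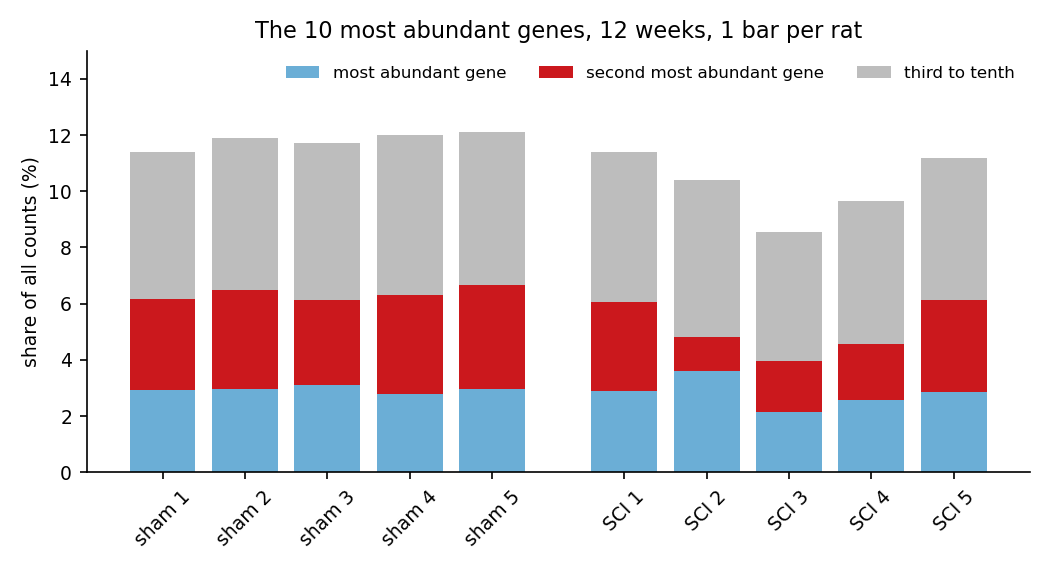
Share of all counts (%, vertical axis) held by the 10 most abundant genes in each rat of 12 weeks, split into the most abundant gene (blue), the second (red) and the third to the tenth (grey), with sham rats on the left and injured (SCI) rats on the right. The red part is between 3.05% and 3.71% in the sham rats and is 1.22%, 1.82% and 2.01% in SCI rats 2, 3 and 4.

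The largest single part of that difference came from 1 gene. The second most abundant gene, ENSRNOG00000043866, held 3.17%, 1.22%, 1.82%, 2.01% and 3.27% of the counts in injured rats 1 to 5, against 3.23%, 3.52%, 3.05%, 3.51% and 3.71% in sham rats 1 to 5. Injured rats 2, 3 and 4 lay below all sham rats, whereas injured rats 1 and 5 lay within the sham range. Its mean share was 2.30% ± 0.89 (SD, n = 5) after injury and 3.40% ± 0.263 in sham rats. The difference of -1.11 percentage points is 68.2% of the 10-gene difference. That part depended on single rats: it was 50.4% without injured rat 2, 82.1% without injured rat 3 and 52.9% without both, and between 65.9% and 72.6% without any other single rat.

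The other 9 genes together held 8.21%, 9.14%, 6.72%, 7.63% and 7.89% of the counts in injured rats 1 to 5, against 8.18%, 8.42%, 8.67%, 8.54% and 8.37% in sham rats 1 to 5. Injured rats 3, 4 and 5 lay below all sham rats, injured rat 1 at the lower end of the sham range and injured rat 2 above all of them. The difference of -0.517 percentage points, or 31.8% of the whole, did not pass (exact two-sided permutation test, p = 0.254). Injured rat 2 decided this: without it the difference was -0.823 (exact permutation p = 0.0317). Without injured rat 3 it was -0.216 (exact permutation p = 0.508), and without both -0.525 (exact permutation p = 0.0714, the groups then being 3 and 5 rats). With ENSRNOG00000043866 taken out of the totals as well, and the ranking redone, the difference of the 10 leading genes was -0.593 percentage points (exact two-sided permutation test, p = 0.198). Here too it was -0.896 without injured rat 2 (exact permutation p = 0.0317) and -0.273 without injured rat 3 (exact permutation p = 0.397).

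Each of the other 9 genes contributed less than the second. The most abundant gene held 2.88%, 3.60%, 2.13%, 2.56% and 2.87% of the counts in injured rats 1 to 5 and between 2.80% and 3.09% in sham rats. Injured rat 2 thus had the highest and injured rat 3 the lowest share of the 10 rats, and the means of 2.81% ± 0.537 (SD, n = 5) and 2.95% ± 0.105 differed by -0.14 percentage points (exact two-sided permutation test, p = 0.587). The fourth gene followed with a difference of -0.133, the third with -0.113 and the tenth with -0.0846 percentage points. The fifth, the ninth and the sixth differed by -0.0651, -0.0633 and -0.0108.

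A pair of the 10 genes had the opposite sign. ENSRNOG00000017428, the eighth, held 0.579%, 0.559%, 0.667%, 0.639% and 0.513% of the counts in injured rats 1 to 5. In sham rats 1 to 5 it held 0.485%, 0.593%, 0.499%, 0.505% and 0.503%, so sham rat 2 lay inside the injured range. Its mean share was 0.0743 percentage points higher after injury, and that of the seventh gene 0.0182 higher. In all, 8 of the 10 genes had a lower mean share in injured rats, with differences that sum to -1.72 percentage points, and 2 had a higher one, summing to 0.0925.

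Just below the first 10, the gene of rank 13, ENSRNOG00000030478, stood out and was singled out after its values were seen. It held 0.278%, 0.109%, 0.212%, 0.204% and 0.317% of the counts in injured rats 1 to 5 and 0.443%, 0.404%, 0.362%, 0.492% and 0.425% in sham rats 1 to 5. The groups did not overlap, and it was the 1 gene among the 20 most abundant of which this held, against 0.946% of all genes tested. The mean shares were 0.224% ± 0.0794 (SD, n = 5) and 0.425% ± 0.048, a difference of -0.201 percentage points. The other 9 genes of ranks 11 to 20 had a slightly higher mean share in injured rats, although with TMM scaling, which adjusts for the make-up of a library, those of ranks 15 and 19 turned to log2 fold changes of -0.00432 and -0.00431. With these small positive differences, the 10 genes together differed by only -0.0112 percentage points.

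ENSRNOG00000043866 and ENSRNOG00000030478 varied together from rat to rat. Across the 10 rats of 12 weeks their shares correlated with a Pearson r of 0.908 (permutation test, p = 0.00027) and a Spearman rho of 0.806 (permutation p = 0.00716). Both groups of rats enter that value, so it also holds the difference between them. The same relation was found across the 20 rats of the other 4 groups, none of which entered the comparison, with r = 0.881 and rho = 0.883 (permutation p = 1e-05 for each, the smallest that 100000 permutations can give). Differences between those 4 groups enter these values too: injured rats of 6 weeks had the highest mean share of both genes, 3.68% and 0.508%. A relation within groups was not tested. Without the 2 rats farthest from the median share of ENSRNOG00000043866, r was 0.798 in the 10 rats and 0.884 in the 20. The 6 relations computed gave Benjamini-Hochberg adjusted p values for r of 0.00081 and 6e-05 for these 2 sets of rats, and for rho of 0.0215 and 6e-05.

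The most abundant gene, in contrast, had no detectable relation with the second: r was -0.00298 and rho 0.0909 in the 10 rats of 12 weeks (permutation p and Benjamini-Hochberg adjusted p both 0.993 for r and 0.813 for rho) and -0.15 and -0.176 in the other 20 (permutation p = 0.527 and 0.458, adjusted p = 0.79 and 0.687). Without injured rats 2 and 3 the first of these r values was 0.696, so it rested on those rats. The other 20 kept a weak negative value of -0.262 without 2 rats.

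**Figure D2:**
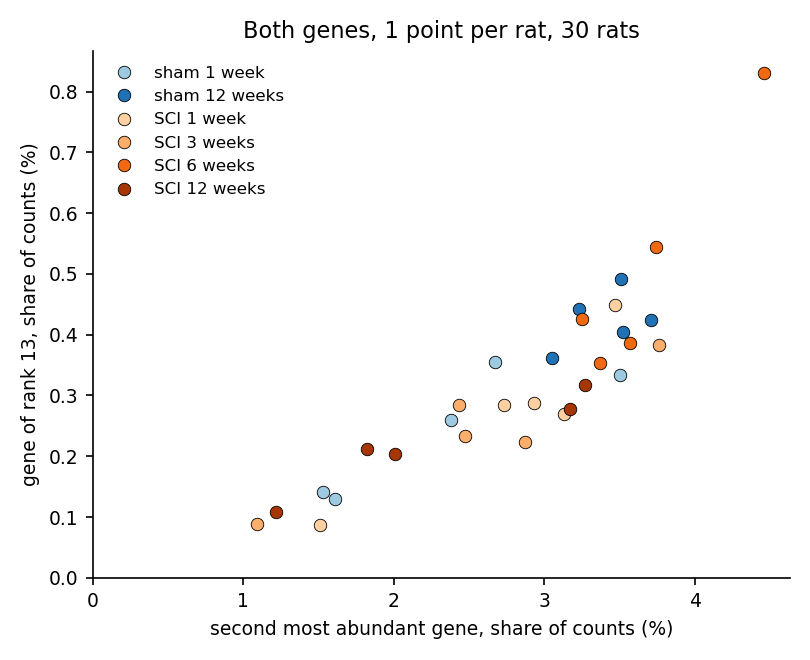
Share of counts (%) of the second most abundant gene (horizontal axis) and of the gene of rank 13 (vertical axis), 1 point per rat for all 30 rats, coloured by group. The points run along a rising line, with SCI 12 weeks at the lower left to middle and sham 12 weeks in the upper middle.

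Depth moved with the second gene in part of the series. Its share correlated with the log2 library total with r = -0.54 and rho = -0.499 across the 20 rats of the other groups (permutation p = 0.0139 and 0.0267, adjusted p = 0.0278 and 0.0534). Without the 2 farthest rats r was -0.464. Differences between these groups enter the values: injured rats of 6 weeks had the highest mean share, 3.68%, and totals of 6.46 M to 12.1 M. A relation within groups was not tested. Across the 10 rats of 12 weeks r was 0.0716 and rho 0.0909 (permutation p = 0.849 and 0.812, adjusted p = 0.993 and 0.813), and 0.0891 was the r without injured rats 2 and 3. Injured rat 2, with the smallest total, had the lowest share of ENSRNOG00000043866, and injured rat 3, with the largest total, the next lowest. With the log2 library total as a covariate in edgeR, the log2 fold change of ENSRNOG00000043866 was -0.575 (unadjusted p = 0.0684, adjusted p = 0.927). Without the covariate it was -0.59. For ENSRNOG00000030478 the values were -0.873 with it (edgeR unadjusted p = 0.0399, adjusted p = 0.927) and -0.95 without. Beyond this fit, the part of depth in the difference was not tested.

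The reference group matters for both genes. In sham rats of 1 week ENSRNOG00000043866 held a mean of 2.34% ± 0.813 (SD, n = 5) of the counts, with a range of 1.53% to 3.50%, close to the 2.30% of injured rats at 12 weeks. Of these 5 rats 4 lay below the lowest sham rat of 12 weeks, against 3 of the 5 injured rats of 12 weeks. The remaining sham rat of 1 week, at 3.50%, has a title naming a control and a surgery field naming an injury. The means of the injured groups were 2.76% ± 0.747 at 1 week, 2.52% ± 0.965 at 3 weeks and 3.68% ± 0.474 at 6 weeks, each with n = 5. Sham rats of 12 weeks thus had a high and narrow range within the series.

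Both sham groups together are 10 rats, including the one with conflicting labels. Against them the difference of ENSRNOG00000043866 at 12 weeks was -0.574 percentage points (exact two-sided permutation test, p = 0.226). That of ENSRNOG00000030478 was -0.111 (exact permutation p = 0.0932) and that of the 10-gene share -1.09 (exact permutation p = 0.0773). With sham rats of 12 weeks alone, the exact two-sided permutation p was 0.0397 for ENSRNOG00000043866 and 0.00794 for ENSRNOG00000030478. Neither of these p values is adjusted, and both genes were looked at because their values stood out. For ENSRNOG00000043866 the exact permutation p was 0.0794 without injured rat 2, 3 or 4 or sham rat 2, 4 or 5.

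**Figure D3:**
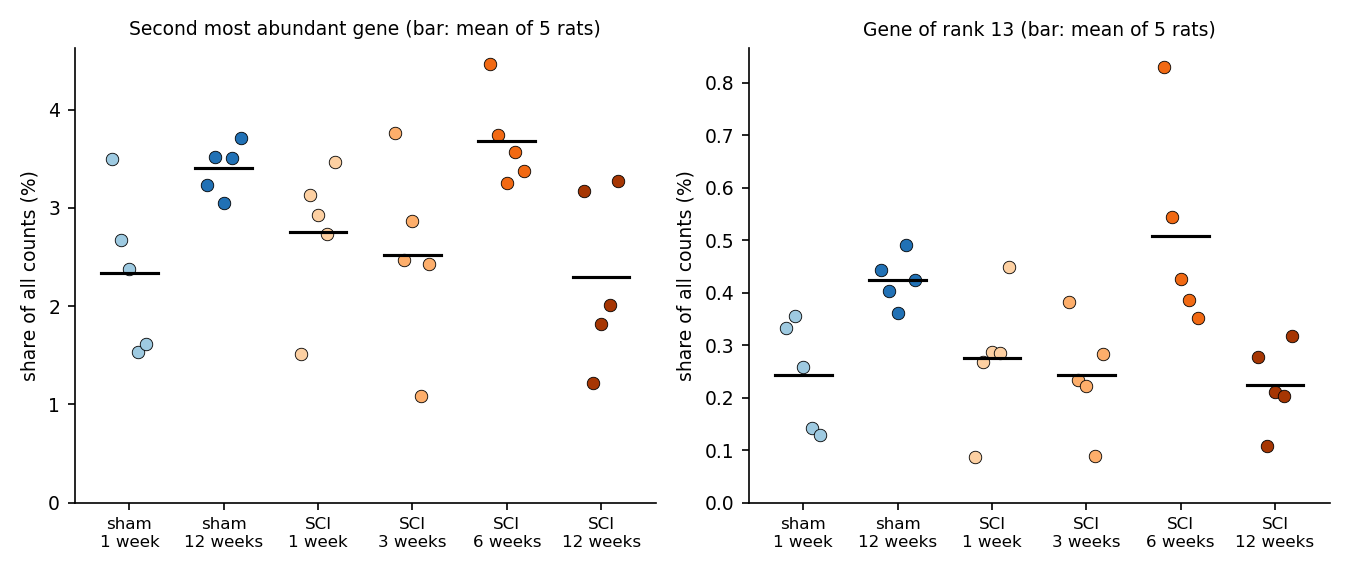
Share of counts (%, vertical axis) of the second most abundant gene (left) and of the gene of rank 13 (right) in every rat of the 6 groups, with a bar at the mean of 5 rats. Sham 12 weeks lies between 3.05% and 3.71% on the left and between 0.362% and 0.492% on the right, while sham 1 week and SCI 12 weeks spread over lower values.

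The injury difference at 12 weeks was set against that at 1 week for the 3 shares, by permuting the week within injured and within sham rats. Such permutation assumes no difference between weeks within either group. Its p is therefore not an exact test of an equal injury difference at both weeks, and serves as a description. The second gene differed by 0.419 percentage points between injured and sham rats at 1 week and by -1.11 at 12 weeks. That is a change of -1.53 (permutation test over all 63504 arrangements, p = 0.032, adjusted p = 0.0349 over 3 tests). The gene of rank 13 went from 0.0317 to -0.201, a change of -0.233 (permutation p = 0.0181, adjusted p = 0.0349). The 10-gene share went from 0.152 to -1.62, a change of -1.78 (permutation p = 0.0349, adjusted p = 0.0349). These tests were chosen after the shares had been seen. They are not independent, since the second gene is part of the 10-gene share and varied together with the gene of rank 13. The labels of 1 sham rat of 1 week conflict, its title naming a control and its surgery field an injury. Without it the changes were -1.82, -0.256 and -2.06 (permutation p = 0.0127, 0.0154 and 0.0196).

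The counts that the leading genes did not take were spread thinly over the rest. Genes of ranks 101 to 500 held 18.8% ± 0.402 (SD, n = 5) of the counts in injured rats and 18.3% ± 0.131 in sham rats, 0.509 percentage points more. Genes of ranks 501 to 2000 held 0.448 points more and those of ranks 2001 to 5000 0.305 more. All genes beyond rank 5000 held 12.1% ± 0.168 in injured and 11.9% ± 0.274 in sham rats. Of the list sizes tried, the difference was largest for the first 20 genes, at -1.64 percentage points. It was -1.49 for the first 50, -1.42 for the first 100 and -0.914 for the first 500 (adjusted p of the exact permutation tests, 0.0159 for the first 20 and 50 and 0.0191 for the first 100 and 500). Each of these lists contains the leading genes whose lower share was already known. Ranks 11 to 20 alone differed by -0.0112 percentage points, ranks 21 to 50 by 0.141 and ranks 51 to 100 by 0.0718. These p values are therefore a description rather than fresh tests.

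In the test across all genes, neither of the leading genes passed. Of 14801 genes tested, 0 differed between injured and sham rats at 12 weeks (0% called, edgeR's quasi-likelihood F test with a Benjamini-Hochberg threshold of 0.05), and DESeq2 and limma-voom also called 0. An unadjusted p under 0.05 was found for 785 genes, 5.3% of those tested, 451 of them higher (3.05%) and 334 lower (2.26%). With library totals in place of TMM scaling that split was 710 higher and 215 lower. Scaling to library totals moved the median log2 fold change of all genes from 0.0031 to 0.0256.

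For ENSRNOG00000043866 the edgeR fold change was -0.59 on the log2 scale, with a standard error of 0.293 and a 95% interval of -1.19 to 0.013 (edgeR unadjusted p = 0.0548, adjusted p = 0.903). Its level in CPM, the file's counts divided by the TMM-scaled library total and expressed per M counts, was 34260 ± 2874 (SD, n = 5) in sham and 22750 ± 8843 in injured rats. For ENSRNOG00000030478 the log2 fold change was -0.95 with a standard error of 0.392 and an interval of -1.76 to -0.137 (edgeR unadjusted p = 0.0238, adjusted p = 0.903). In the edgeR interaction with 1 week their unadjusted p was 0.0536 and 0.0508, and their adjusted p 0.605 and 0.599.

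**Figure D4:**
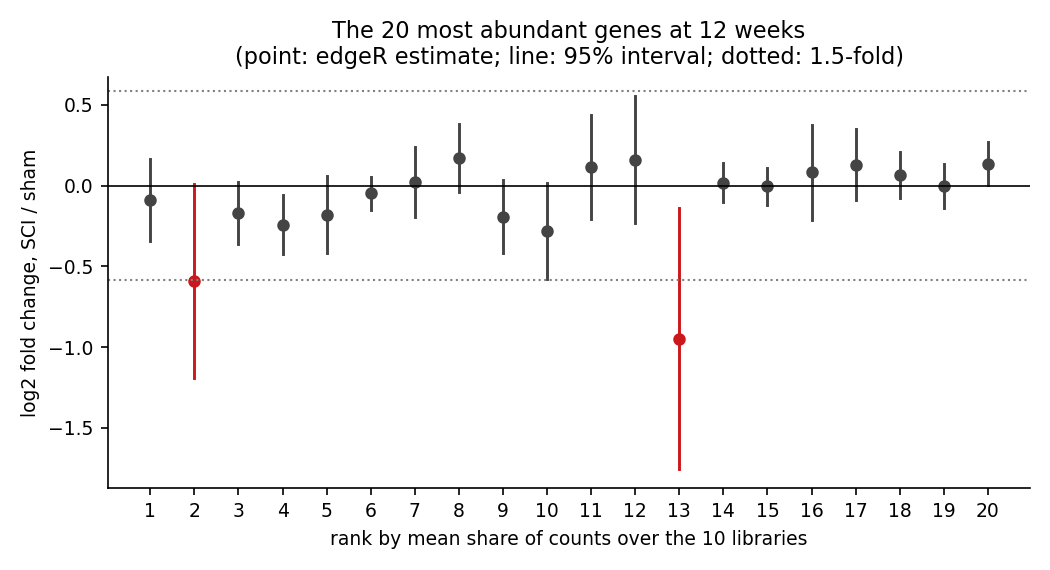
log2 fold change of injured over sham rats at 12 weeks (vertical axis) for the 20 most abundant genes by rank (horizontal axis), with the edgeR estimate as a point, its 95% interval as a line and dotted lines at 1.5-fold. Ranks 2 and 13 (red) lie at -0.59 and -0.95, and the intervals of the other 18 genes stay within 1.5-fold.

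For the other 18 of the 20 most abundant genes the 95% interval excluded a 1.5-fold difference in either direction. The fourth gene, ENSRNOG00000002419, had the smallest unadjusted p of the 10, with a log2 fold change of -0.24 (edgeR unadjusted p = 0.0118, adjusted p = 0.903), and its shares of 0.682% to 0.95% in injured and 0.844% to 1.07% in sham rats overlapped. The eighth gene, ENSRNOG00000017428, had a log2 fold change of 0.17 with an interval of -0.0384 to 0.379. The most abundant gene had one of -0.09, from -0.344 to 0.163.

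The size of change that these rats allow depended on abundance. Among the 100 genes with the highest CPM, from 862 to 28800 CPM, the fold change exceeded 1.5-fold in 2, which were the genes of ranks 2 and 13. From rank 101 to rank 5000 by CPM, down to 38.8 CPM, it exceeded that size in 0 genes. A 1.5-fold difference lay outside the interval for 93% of the first 100 genes, 99.6% of ranks 501 to 2000 and 96.1% of ranks 5001 to 10000. Among the 4801 least abundant genes tested, up to 8.23 CPM, it did so for 32%, so a change of that size was not excluded for most of them. These intervals are not adjusted for the number of genes tested. An unadjusted p under 0.05 was found for 13 of the first 100 genes (13%), for 6.5% of ranks 101 to 500 and for 4.83% of the least abundant, where 5.3% is the value over all genes.

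**Figure D5:**
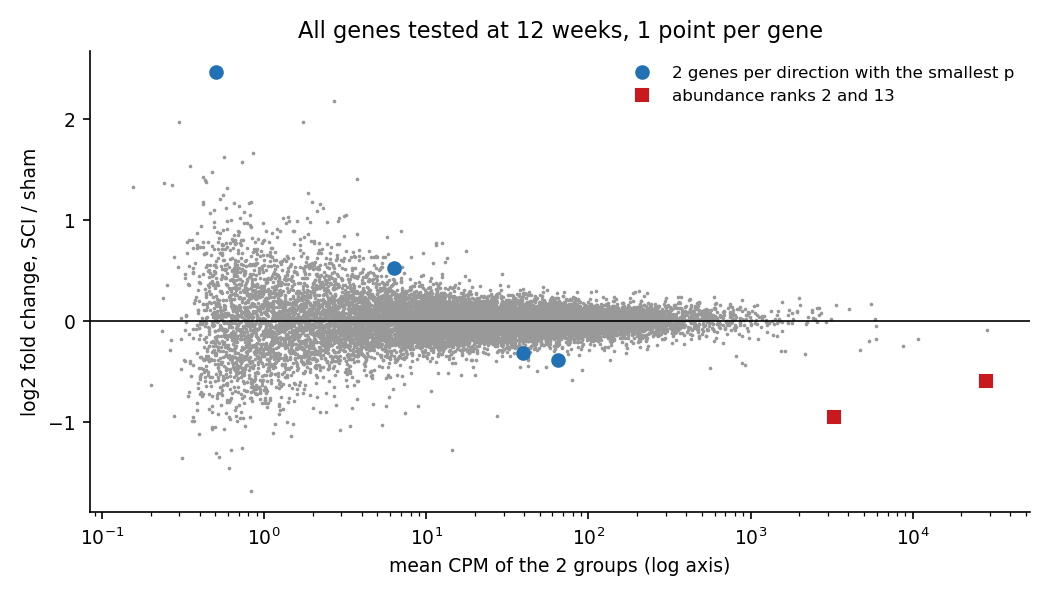
log2 fold change of injured over sham rats at 12 weeks (vertical axis) against the mean CPM of both groups (horizontal log axis), 1 grey point per gene tested, with the 2 genes per direction of smallest p in blue and abundance ranks 2 and 13 in red. The cloud narrows toward high CPM, and the red squares lie below it at -0.59 and -0.95.

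The genes with the smallest p in each direction are given by their values, since none passed. ENSRNOG00000060235 was a rare transcript, with 8, 13, 21, 11 and 16 counts in injured rats 1 to 5 and 2, 1, 2, 2 and 3 counts in sham rats 1 to 5. Summed over rats, 69 counts of 90.5 M stood against 10 of 72.5 M, a ratio of 5.53 with an exact 95% counting interval of 2.83 to 12.0 that leaves out the spread between rats. The groups did not overlap (edgeR unadjusted p = 0.000203, adjusted p = 0.856). Whether this gene is tested at all depended on the filter. It was not kept with a minimum of 1 CPM in 5 libraries, nor in a fit of the 10 libraries of 12 weeks alone. In sham rats of 1 week its level ran from 0 to 0.684 CPM, into the range of 0.614 to 1.59 CPM of the injured rats of 12 weeks.

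ENSRNOG00000033693 stood at 5.93, 6.75, 8.68, 7.05 and 8.60 CPM in injured rats 1 to 5 and at 4.82, 4.96, 4.63, 5.33 and 6.23 in sham rats 1 to 5. Only injured rat 1 and sham rat 5 crossed, and the log2 fold change was 0.53 with a standard error of 0.137 (edgeR unadjusted p = 0.000445, adjusted p = 0.856). Its mean in sham rats of 1 week was 6.70 CPM ± 0.841 (SD, n = 5), above the 5.19 ± 0.633 of sham rats of 12 weeks.

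On the lower side, ENSRNOG00000054695 stood at 54.6, 53.7, 52.1, 54.0 and 65.6 CPM in injured rats 1 to 5 and at 68.2, 76.4, 79.1, 73.0 and 69.6 in sham rats 1 to 5. The groups did not overlap, although injured rat 5 came close to the sham range. The log2 fold change was -0.39 with a standard error of 0.0969 (edgeR unadjusted p = 0.000325, adjusted p = 0.856). In sham rats of 1 week the level ran from 59.8 to 78.4 CPM, into the 52.1 to 65.6 CPM of these injured rats. With both sham groups as reference the log2 fold change was -0.348 (edgeR unadjusted p = 0.000234, adjusted p = 0.693). Levels in the other injured groups were higher, with means of 78.5, 73.3 and 68.4 CPM at 1, 3 and 6 weeks.

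ENSRNOG00000009856 stood at 38.0, 37.2, 31.8, 33.1 and 35.7 CPM in injured and at 40.2, 46.3, 42.2, 48.7 and 39.7 in sham rats 1 to 5, again without overlap (log2 fold change -0.31, standard error 0.0852, edgeR unadjusted p = 0.000841, adjusted p = 0.856). In sham rats of 1 week its level ran from 36.7 to 41.4 CPM, into the 31.8 to 38.0 CPM of these injured rats. With both sham groups as reference the log2 fold change was -0.217 (edgeR unadjusted p = 0.00595, not passing after adjustment). Over all genes tested, the injured and sham groups listed above did not overlap in 140, or 0.946%. Of these, 71 were higher (0.48%) and 69 lower (0.466%) in injured rats. Genes chosen by a small p tend to separate the groups, so the separation in 3 of these 4 genes is no further support.

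A single rat decided the call of 1 gene. ENSRNOG00000029042, named after its values were seen, had a log2 fold change of -0.49 (edgeR adjusted p = 0.856) with all rats and of -0.75 (edgeR adjusted p = 0.0127) without injured rat 5. Injured rats 1 to 4 stood at 41.6, 29.4, 33.7 and 29.4 CPM, below the 50.2 to 63.7 CPM of the sham rats, and injured rat 5 at 64.7 CPM, above all of them. Without any other single rat of either group 0 genes passed, and without injured rats 2 and 3 together 0 passed.

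Injured rats differed more from each other than sham rats did. Over the 8930 genes with at least 100 counts in each of the 10 libraries, the log2 level had a median SD between rats of 0.143 in the injured and 0.10 in the sham group, and the SD was larger in the injured group for 6484 genes, or 72.6%. The root mean square log2 difference between 2 rats had a median of 0.249 over the 10 injured pairs, with a range of 0.183 to 0.339, and of 0.188 over the 10 sham pairs, with a range of 0.168 to 0.201. The 3 pairs among injured rats 1, 4 and 5 lay between 0.183 and 0.206, close to the sham pairs, so the wider values all involved injured rat 2 or 3.

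Per rat, the root mean square log2 distance from the mean of the others in its group, scaled for group size, was 0.153, 0.216, 0.209, 0.128 and 0.147 for injured rats 1 to 5, and 0.128, 0.144, 0.123, 0.137 and 0.126 for sham rats 1 to 5. The means of 0.171 ± 0.0393 (SD, n = 5) and 0.132 ± 0.00871 differed by 0.0389 (two-sided permutation of these distances, p = 0.0397, a test added after the data were seen). Distances within a group depend on each other, since each is taken from the mean of the others. The permutation p is therefore not exact and serves as a description. Leaving out 1 rat at a time gave differences of 0.025 to 0.0525 with permutation p from 0.0159 to 0.0952. The smallest difference was without injured rat 2. The p was above 0.05 without injured rat 1 or 2, or sham rat 1, 3 or 5. Injured rats 2 and 3 are also the shallowest and the deepest library and 2 of the 3 with a low share of ENSRNOG00000043866. The part of depth in the wider spread was not tested, and neither RNA quality nor lesion size per rat is among the values analysed here.

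Across all genes, the injury difference at 12 weeks was not shown to be unlike that at 1 week. In the interaction 0 of 14801 genes passed (0% called, edgeR, smallest adjusted p = 0.0548), while DESeq2 called 18 and limma-voom 2. An unadjusted p under 0.05 in the edgeR interaction was found for 1240 genes, 8.38% of those tested. For injured against sham rats at 12 weeks that share was 5.3%. In bulk tissue such as this, a lower level of an RNA and a smaller number of the cells that hold it cannot be told apart. The libraries were also depleted of ribosomal RNA, and the part of that step in the shares of the leading genes was not tested.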

How the data were processed

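Total RNA depleted of ribosomal RNA was sequenced as strand-specific libraries, 1 per rat, per the labels' protocols. The values deposited by the authors are counts, not normalized, for each gene identifier. The submitters' processing notes name bcl2fastq 2.19.05, Trimmomatic, STAR 2.5.3a, featureCounts, Subread 1.2.6 and the build Rnor_6.0, with no role or order. The sources used here do not give the annotation release, strand setting or treatment of multi-mapping reads, so overlapping genes and near-identical copies are uncertain. Each table lists 32545 identifiers, of which 0 matched the 47357 rows of the reference table (assembly GRCr8), so marker lists and gene groups were not run.

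Counts were tested with edgeR 4.0.16 in R 4.3.3 (TMM, filterByExpr, robust quasi-likelihood fit) in 1 model of all 6 groups and 30 libraries, without covariates. Benjamini-Hochberg adjustment over the genes tested used a threshold of 0.05. The 14801 genes kept hold 99.941% of the counts. Standard errors were derived as the log2 fold change over the root of F. DESeq2 1.42.0 and limma 3.58.1 were alternatives, and the edgeR and permutation tests were checked on simulated data. Shares are percentages of a library's total count, and ranks use the mean share over the 10 libraries. Permutation tests are exact and two-sided (scipy 1.17.1), with some exceptions. Those of correlations drew 100000 permutations, and that of the distances between rats used values that depend on each other. Those of the change in injury difference between weeks ran over all arrangements, but assume no difference between weeks within either group. Replicate pairs within the 2 groups gave a chi-square per degree of freedom of 4.82 to 43.2 over 20 pairs, so none agreed within sampling noise.

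Groups came from sample titles. The genes named are the 2 per direction with the smallest p and the 10 most abundant by rank, of which some are given by identifier, and further genes are marked as chosen after their values were seen. The comparison, the genes and the tests were chosen with earlier results of these data known.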

Additional observations from a re-analysis of the deposited data

Results flagged for a closer look

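Values of single libraries far from the other 4 of their group were sought in 34 sets of 5 rats (totals, shares and named genes of the 12-week groups) and found in 3, where chance at 1 in 20 gives 1.7. The share of the eighth most abundant gene was 0.593% in sham rat 2, with 0.485% to 0.505% in the other sham rats. ENSRNOG00000060235 stood at 1.59 CPM in injured rat 2, the shallowest of the 10 libraries, where 13 counts lie behind it, with 0.614 to 0.753 CPM in the other injured rats. ENSRNOG00000054695 stood at 65.6 CPM in injured rat 5, with 52.1 to 54.6 CPM in the other injured rats.

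From 1 to 12 weeks the injury difference moved in the 10-gene share, the second gene's share and that of the gene of rank 13. The changes were -1.78, -1.53 and -0.233 percentage points (permutation of the week within injured and within sham rats, p = 0.0349, 0.032 and 0.0181). The sham groups of 1 and 12 weeks enter these values as much as the injured ones: for the second gene the sham means were 2.34% and 3.40% and the injured means 2.76% and 2.30%. The 3 shares are not independent of each other, and their tests were chosen after the shares had been seen. These tests also assume no difference between weeks within either group. In the edgeR interaction neither gene passed. The unadjusted p was 0.0536 for the second gene and 0.0508 for the gene of rank 13 (edgeR adjusted p = 0.605 and 0.599).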

How the results depend on the processing

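The count of 0 genes at 12 weeks was the same under 23 of 24 alternatives and lay between 0 and 1 when 1 replicate was left out (1 without injured replicate 5). The interaction count was 0, and it was 18 with DESeq2, 2 with limma-voom, 1 without the sham library of 1 week with conflicting labels, and between 0 and 2 when 1 replicate was left out. The 10-gene share kept its direction throughout, with -1.91 to -1.21 percentage points when 1 replicate was left out, but no longer passed against both sham groups (-1.09), without the second gene (-0.517) and without that gene in ranking and totals (-0.593); the last 3 were chosen after seeing the data. Injured replicate 2 decided the last pair: when 1 replicate was left out they ran from -0.823 to -0.216 and from -0.896 to -0.273, and both passed without injured replicate 2 alone (exact permutation p = 0.0317 each). The share of the second gene ran from -1.35 to -0.838 when 1 replicate was left out, and its exact permutation p was above 0.05 in 6 of these 10 cases, at most 0.0794. It was -0.59 without injured replicates 2 and 3 (exact permutation p = 0.179). The difference in library total reversed to -0.252 M without injured replicate 3, within a range of -0.252 to 6.09. Of 333 fold changes of 15 followed genes under an alternative, 330 kept their direction. The 3 that reversed are of ENSRNOG00000013658, the seventh most abundant gene, which ran from -0.046 to 0.0963 when 1 replicate was left out, with -0.046 without injured replicate 2, -0.0216 without sham replicate 5 and -0.0143 without injured replicates 2 and 3.

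Replicate numbers are shared between the groups, but no label says what they mark. With the replicate block 0 genes passed at 12 weeks and 0 in the interaction. Same-numbered rats deviated together with r of 0.0245 to 0.101 over 5 pairs, 1 of them over 0.1, and 8 of the 10 libraries correlated best with their own number, a hint from the data and not the design. The planned ranking without mitochondrially encoded genes and the sums of marker genes were not run, since identifiers could not be matched to names. Depth limits the least abundant genes most.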
